A study of Mus musculus with 8 samples.

Results

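The RNA levels of 9 endothelial and angiogenesis genes, Pecam1, Cdh5, Kdr, Flt1, Tek, Eng, Vwf, Vegfa and Angpt2, were followed in mouse distal colon. They were chosen by symbol, and all 9 were among the 15859 genes of the deposited count table and among the 14371 genes tested. Bulk polyA RNA of 8 male mice was sequenced, 2 in each of 4 groups. Untreated WT mice and untreated Hsf1 null mice, which lack a working copy of the heat shock factor gene Hsf1 throughout the body, formed the day 0 groups. WT and Hsf1 null mice given azoxymethane (AOM, a colon carcinogen, 10 mg/kg injected at 8 weeks of age) and then 1.5% dextran sulfate sodium (DSS, a polymer that damages colon epithelium) in drinking water for 5 days formed the day 15 groups. All mice were of the BALB/c x 129SvEV background, and the labels give an age of 10 weeks for every mouse. The study places the day 15 collection a few days after the DSS course ended.

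Endothelial cells line blood and lymph vessels. They hold together through VE-cadherin and PECAM1, store von Willebrand factor in Weibel-Palade bodies, and take growth signals from VEGF-A through VEGFR2 and VEGFR1 and from the angiopoietins through TIE2, while endoglin helps BMP9 and BMP10 signal through ALK1. In inflamed colon, vessels are known to widen, to admit leukocytes and to sprout. Of the 9 genes, 7 are made mainly by endothelium, Angpt2 is made by endothelium that is being remodelled, and Vegfa is made by many cell types, epithelium and macrophages included. In RNA of whole tissue, fewer endothelial cells and less RNA per cell cannot be told apart.

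Levels are given in CPM, the count of a gene scaled to the total of its library, after TMM normalisation for differences in RNA composition. The mice had from 2553348 to 12440257 counts in all, and the smallest totals were those of WT day 0 replicate 2 (2553348) and Hsf1 null day 0 replicate 2 (2675976). The other totals were 9393945 for WT day 0 replicate 1, 12440257 for Hsf1 null day 0 replicate 1, 11097367 and 9247665 for the WT mice at day 15, and 7379442 and 7593259 for the Hsf1 null mice at day 15. At 2553348 counts, 1 count was worth 0.397 CPM, so low genes were measured coarsely there. Hsf1 itself was at 40.5 and 36.5 CPM in WT at day 0 and at 50.4 and 45.9 CPM in WT at day 15, against 14.0 and 11.9 CPM in Hsf1 null at day 0 and 13.5 and 9.09 CPM at day 15, so each library matched its genotype label. Gene counts do not show which exons the remaining Hsf1 reads come from.

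Among the libraries, Hsf1 null day 15 replicate 1 had the lowest summed CPM of the 9 genes, 124, against 189 in the other mouse of its group. The sums were 268 and 233 in WT at day 0, 223 and 219 in Hsf1 null at day 0, and 416 and 361 in WT at day 15. WT day 0 replicate 1 also stood apart from its partner in a gene that is not an endothelial marker: Thbs1, for the matrix protein thrombospondin 1, was at 555 CPM there and at 41.7 CPM in replicate 2. Markers of colon epithelium were abundant in every mouse, with Krt19 leading its list at a mean of 3152 CPM per kb of exon, and the 18 other pan-endothelial genes listed were all detected in every mouse.

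In treated mice, the genotype comparison asks whether colons with and without Hsf1 differ after AOM-DSS. Cdh5 was 5.12-fold and Eng 3.27-fold higher in WT than in Hsf1 null at day 15, and these 2 of the 9 genes were called by the quasi-likelihood test of edgeR, fitted over all genes with Benjamini-Hochberg adjustment. A call needed an adjusted p under 0.05 together with a log2 fold change beyond 1 in either direction. Over all tested genes 3.17% were called and 1.25% were called higher in WT. All 9 log2 fold changes were above 0, with a median of 1.38 against 0.04 over all tested genes. Without Hsf1 null day 15 replicate 1 the median was 0.90, and without replicate 2 it was 2.18 with 8 of the 9 above 0 and Vegfa at -0.11. In 7 of the 9 the groups did not overlap, with WT higher, as in 28.6% of all tested genes. An unadjusted p under 0.05 was reached by 5 of the 9 and by 23.2% of all tested genes. DESeq2 called 4 of the 9, adding Pecam1 and Vwf, and 1208 of all genes. The calls depended on single libraries. With either WT day 0 mouse left out, Cdh5 and Eng remained called, and with Hsf1 null day 15 replicate 2 left out, Pecam1, Cdh5, Tek, Eng and Vwf were called. With any of the other 5 libraries left out (either Hsf1 null day 0 mouse, either WT day 15 mouse, or Hsf1 null day 15 replicate 1), edgeR called 0 of the 9. In those 5 fits the adjusted p from edgeR was 0.0596 to 0.132 for Cdh5 and 0.0595 to 0.209 for Eng. The log2 fold changes were 2.34 to 2.38 for Cdh5 and 1.64 to 1.78 for Eng in 4 of them, and 1.77 and 1.35 without Hsf1 null day 15 replicate 1. The Hsf1 null day 0 mice enter this comparison only through the normalisation and the estimate of spread that all groups share.

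Untreated mice serve as the reference for genotype before injury. At day 0, the genotype comparison gave 0 of the 9 genes called by edgeR and 0 by DESeq2, and 0 reached an unadjusted p under 0.05, where the share called over all tested genes was 0%. DESeq2 called 18 of all genes there, and 904 had an unadjusted p under 0.05 in edgeR. The log2 fold changes of the 9 genes ran from -0.70 (Angpt2) to 0.50 (Flt1), with adjusted p from edgeR of 0.888 or more. The groups overlapped in all but Vwf, which was higher in both WT mice, as were 18.4% of all tested genes. A further 18.7% of all tested genes were lower in both.

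The change from day 0 to day 15 compares treated with untreated mice within a genotype. The untreated mice were collected at day 0, so AOM-DSS cannot be told apart from injection or day of collection. In WT, edgeR called 0 of the 9 genes, against 7.74% of all tested genes called and 3.47% called higher at day 15. An unadjusted p under 0.05 was reached by 5 of the 9 and by 27.6% of all tested genes, and DESeq2 called Pecam1 and Vwf among 1737 of all genes. Without either Hsf1 null day 15 mouse, edgeR called Pecam1 and Cdh5 in WT (adjusted p = 0.0295 and 0.0419 without replicate 1, 0.0313 and 0.0450 without replicate 2). Pecam1, Cdh5, Eng and Vwf were higher in both treated WT mice than in both untreated mice, as were 31% of all tested genes, and Vegfa was lower in both, as were 31.5%. In Hsf1 null mice, edgeR and DESeq2 each called 0 of the 9 genes, against 11.8% of all tested genes called by edgeR, 6.48% called lower at day 15, and 2203 of all genes called by DESeq2. An unadjusted p under 0.05 was reached by 3 of the 9, a share near the 32.6% of all tested genes. Cdh5, Kdr, Flt1, Vegfa and Angpt2 were lower in both treated Hsf1 null mice than in both untreated mice, as were 30.3% of all tested genes. In the other direction, 0 of the 9 were higher in both, against 31% of all tested genes. The median log2 fold change of the 9 genes was 0.58 in WT and -1.05 in Hsf1 null, beside 0.00 and 0.05 over all tested genes. In WT it ran from 0.33 without WT day 15 replicate 1 to 1.20 without WT day 0 replicate 1, and in Hsf1 null from -1.84 without Hsf1 null day 15 replicate 2 to -0.23 without replicate 1.

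The difference between genotypes in that change was tested directly. All 9 estimates were above 0, with a median of 1.27 against 0.00 over all tested genes. That median ran from 0.88 without Hsf1 null day 15 replicate 1 to 1.86 without replicate 2, and Vegfa was below 0 in 4 of the 8 fits with a mouse left out. Among the 9, edgeR and DESeq2 each called 0, with 2 at an unadjusted p under 0.05 in edgeR. Of all tested genes edgeR called 0.00696% (1 gene), DESeq2 called 120, and 1238 had an unadjusted p under 0.05. A difference in response was therefore not detected for any of the 9 genes after adjustment, and with 2 mice a group such differences were estimated with standard errors of 0.49 to 1.33 on the log2 scale.

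**Figure D1:**
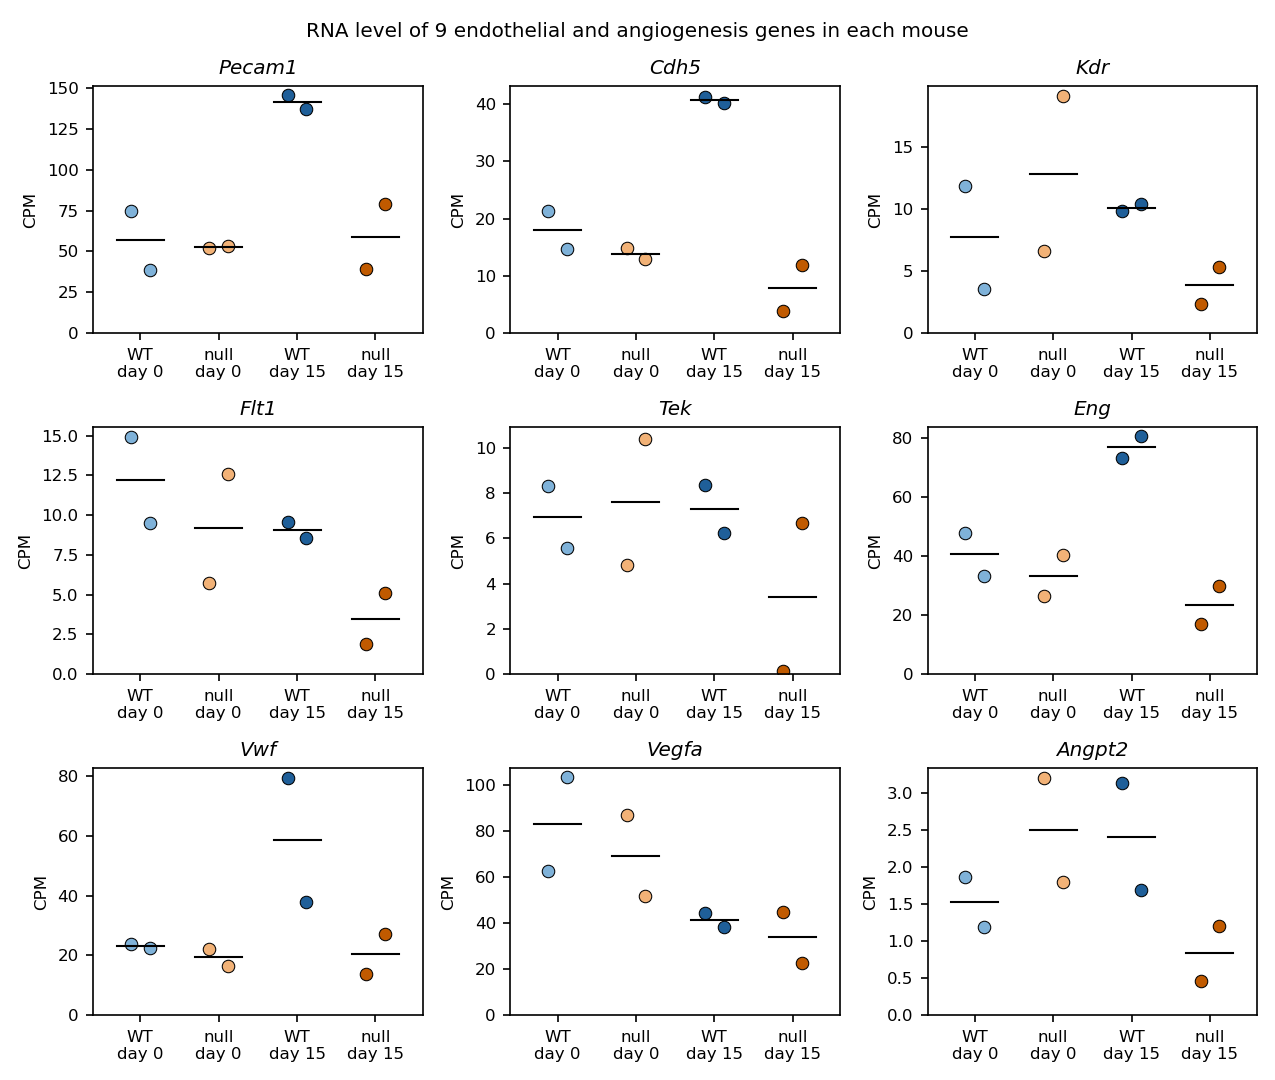
Level of each of the 9 genes in CPM (vertical axis, from 0) in each of the 8 mice; points are mice, horizontal lines are group means, and colours mark the 4 groups. For Pecam1, Cdh5 and Eng both WT mice at day 15 lie above the other 6 mice (for Cdh5 at 41.3 and 40.1 CPM), while Vegfa is lower in the 4 treated than in the 4 untreated mice.

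Pecam1 (ENSMUSG00000020717, GRCm38 chr11:106654217-106750628, minus strand) codes for an adhesion molecule of endothelial junctions that platelets and leukocytes also carry. It was at 75.0 and 38.9 CPM in WT at day 0, 52.2 and 53.5 CPM in Hsf1 null at day 0, 146 and 137 CPM in WT at day 15, and 39.4 and 78.8 CPM in Hsf1 null at day 15. Both treated WT mice were thus above the other 6 mice, and the other 3 groups overlapped. WT exceeded Hsf1 null at day 15 by a log2 fold change of 1.26 ± 0.37 (SE; adjusted p = 0.0862 from edgeR), and that of WT day 15 over WT day 0 was 1.29 ± 0.37 (adjusted p = 0.0591). Neither passed the test in edgeR, while DESeq2 gave adjusted p values of 0.0168 and 0.00885. The day 15 genotype value was 0.84 without Hsf1 null day 15 replicate 1 and 1.85 without replicate 2. The change in Hsf1 null mice was 0.16 ± 0.37, and it was 0.58 without Hsf1 null day 15 replicate 1 and -0.42 without replicate 2.

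Cdh5 (ENSMUSG00000031871, chr8:104101625-104144511, plus strand) codes for VE-cadherin, the cadherin of endothelial adherens junctions and a more selective endothelial marker than Pecam1. It was at 21.3 and 14.7 CPM in WT at day 0, 14.8 and 12.9 CPM in Hsf1 null at day 0, 41.3 and 40.1 CPM in WT at day 15, and 3.88 and 11.9 CPM in Hsf1 null at day 15. Treated WT mice were the highest and treated Hsf1 null mice the lowest, with no overlap between either of them and the untreated mice. The 3.88 CPM rested on 25 counts and the 11.9 CPM on 89. The nearby 12.9 CPM of Hsf1 null day 0 replicate 2 rested on 36 counts. The log2 fold change at day 15 was 2.36 ± 0.46 (adjusted p = 0.0316 from edgeR), and it was 1.77 without Hsf1 null day 15 replicate 1 and 3.39 without replicate 2. The change from day 0 to day 15 was 1.16 ± 0.45 in WT (adjusted p = 0.128) and -0.81 ± 0.46 in Hsf1 null (adjusted p = 0.253), neither of which was called. In Hsf1 null it was -0.23 without Hsf1 null day 15 replicate 1 and -1.84 without replicate 2 (adjusted p = 0.0548 from edgeR). The difference between these changes was 1.97 ± 0.64 (adjusted p = 0.454 from edgeR).

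Eng (ENSMUSG00000026814, chr2:32646595-32682669, plus strand) codes for endoglin, the co-receptor of ALK1, and is also found on some macrophages and stromal cells. It was at 47.8 and 33.3 CPM in WT at day 0, 26.3 and 40.2 CPM in Hsf1 null at day 0, 73.2 and 80.4 CPM in WT at day 15, and 16.9 and 29.9 CPM in Hsf1 null at day 15. Both treated WT mice were above the other 6, and treated and untreated Hsf1 null mice overlapped. Its log2 fold change between genotypes at day 15 was 1.71 ± 0.35 (adjusted p = 0.0341 from edgeR). In WT the change from day 0 was 0.91 ± 0.34 (adjusted p = 0.120) and in Hsf1 null it was -0.48 ± 0.35 (adjusted p = 0.363), with -0.12 without Hsf1 null day 15 replicate 1 and -0.95 without replicate 2. Exons of Eng share 61 of their 4048 bases with Fpgs on the opposite strand, and whether the counting used strand is not given in the sources used here.

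Vwf (ENSMUSG00000001930, chr6:125546774-125686679, plus strand) codes for von Willebrand factor, the clotting protein that endothelium and megakaryocytes store. It was at 23.9 and 22.6 CPM in WT at day 0, 22.1 and 16.5 CPM in Hsf1 null at day 0, 79.5 and 38.0 CPM in WT at day 15, and 13.8 and 27.0 CPM in Hsf1 null at day 15. The treated WT mice were the highest but were far from each other. The log2 fold change at day 15 was 1.52 ± 0.42 (adjusted p = 0.0722 from edgeR, 0.00992 from DESeq2) and was 0.89 without WT day 15 replicate 1. From day 0 to day 15 it was 1.33 ± 0.42 in WT (adjusted p = 0.0765 from edgeR, 0.0218 from DESeq2) and 0.06 ± 0.42 in Hsf1 null. The first was 0.71 without WT day 15 replicate 1, and the second was 0.47 without Hsf1 null day 15 replicate 1 and -0.50 without replicate 2.

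Kdr (ENSMUSG00000062960, chr5:75932827-75978458, minus strand) codes for VEGFR2, the main signalling receptor for VEGF-A. It was at 11.9 and 3.57 CPM in WT at day 0, 6.57 and 19.0 CPM in Hsf1 null at day 0, 9.82 and 10.3 CPM in WT at day 15, and 2.33 and 5.35 CPM in Hsf1 null at day 15. The treated WT mice lay inside the range of the untreated mice, and the treated Hsf1 null mice were below both treated WT mice and both untreated Hsf1 null mice. The 3.57 CPM rested on 9 counts and the 2.33 CPM on 15. The log2 fold change of WT over Hsf1 null at day 15 was 1.38 ± 0.67 (adjusted p = 0.246 from edgeR), and it was 0.90 without Hsf1 null day 15 replicate 1 and 2.11 without replicate 2. The change from day 0 was 0.30 ± 0.65 in WT (1.49 without WT day 0 replicate 1 and -0.22 without replicate 2) and -1.67 ± 0.69 in Hsf1 null (adjusted p = 0.124; -0.76 without Hsf1 null day 0 replicate 2). None of these passed the test.

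Flt1 (ENSMUSG00000029648, chr5:147561604-147726011, minus strand) codes for VEGFR1, which binds VEGF-A tightly and in its soluble form acts as a decoy. It was at 14.9 and 9.52 CPM in WT at day 0, 5.75 and 12.6 CPM in Hsf1 null at day 0, 9.56 and 8.55 CPM in WT at day 15, and 1.86 and 5.08 CPM in Hsf1 null at day 15. The treated WT mice overlapped the untreated mice, and the treated Hsf1 null mice were the lowest of the 8. At day 15 the genotype log2 fold change was 1.37 ± 0.56 (adjusted p = 0.183 from edgeR). It was 0.83 without Hsf1 null day 15 replicate 1 and 2.27 without replicate 2. The change from day 0 was -0.46 ± 0.54 in WT and -1.33 ± 0.58 in Hsf1 null (adjusted p = 0.145). With single mice left out, these ran from -0.70 without WT day 0 replicate 2 to -0.07 without replicate 1, and from -2.23 without Hsf1 null day 15 replicate 2 to -0.71 without Hsf1 null day 0 replicate 2. Gene counts do not separate the soluble from the membrane form.

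Vegfa (ENSMUSG00000023951, chr17:46016993-46032369, minus strand), the ligand of both receptors, was at 62.6 and 104 CPM in WT at day 0, 87.0 and 51.7 CPM in Hsf1 null at day 0, 44.6 and 38.5 CPM in WT at day 15, and 45.0 and 22.6 CPM in Hsf1 null at day 15. It was lower in the 4 treated mice than in the 4 untreated mice, and the genotypes overlapped at both times. The log2 fold change from day 0 was -0.99 ± 0.39 in WT (adjusted p = 0.136 from edgeR) and -1.05 ± 0.39 in Hsf1 null (adjusted p = 0.0985), and neither was called. The first was -0.57 without WT day 0 replicate 2, and the second ran from -1.63 without Hsf1 null day 15 replicate 1 to -0.62 without Hsf1 null day 0 replicate 1. For WT over Hsf1 null at day 15 it was 0.30 ± 0.39 (adjusted p = 0.679), which turned to -0.11 without Hsf1 null day 15 replicate 2 and was 0.87 without replicate 1.

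Tek (ENSMUSG00000006386, chr4:94739289-94874976, plus strand) codes for TIE2, the receptor of the angiopoietins. It was at 8.33 and 5.55 CPM in WT at day 0, 4.84 and 10.4 CPM in Hsf1 null at day 0, 8.35 and 6.23 CPM in WT at day 15, and 0.155 and 6.68 CPM in Hsf1 null at day 15. In Hsf1 null day 15 replicate 1 there was 1 count, with an exact 95% Poisson interval of 0.00392 to 0.864 CPM that covers counting error only, while 7 mice were between 4.84 and 10.4 CPM and their groups overlapped. The log2 fold change at day 15 was 1.07 ± 0.93 (adjusted p = 0.522 from edgeR), and this library alone set it: the value was 0.12 without it and 5.42 without the other Hsf1 null mouse (adjusted p = 0.0233). The change from day 0 was 0.04 ± 0.92 in WT and -1.07 ± 0.96 in Hsf1 null, and the latter was -0.12 without replicate 1 of the treated mice and -5.42 without replicate 2 (adjusted p = 0.0488).

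Angpt2 (ENSMUSG00000031465, chr8:18690263-18741562, minus strand) codes for angiopoietin 2, a ligand that in most settings opposes TIE2 signalling and is released from Weibel-Palade bodies. It was at 1.86 and 1.19 CPM in WT at day 0, 3.20 and 1.80 CPM in Hsf1 null at day 0, 3.13 and 1.69 CPM in WT at day 15, and 0.465 and 1.20 CPM in Hsf1 null at day 15. These levels rested on 3 to 39 counts a mouse, and the 3 counts of Hsf1 null day 15 replicate 1 allow 0.0959 to 1.36 CPM (exact 95% Poisson interval). Only the treated Hsf1 null mice lay apart, below the treated WT mice and the untreated Hsf1 null mice. Its log2 fold change between genotypes at day 15 was 1.50 ± 0.73 (adjusted p = 0.248 from edgeR). It was 0.98 without WT day 15 replicate 1 and 2.34 without Hsf1 null day 15 replicate 2. With treatment it was 0.58 ± 0.71 in WT (0.06 without WT day 15 replicate 1 and 1.01 without WT day 0 replicate 1) and -1.62 ± 0.75 in Hsf1 null (adjusted p = 0.163; -1.07 without Hsf1 null day 0 replicate 1 and -2.46 without Hsf1 null day 15 replicate 2).

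**Figure D2:**
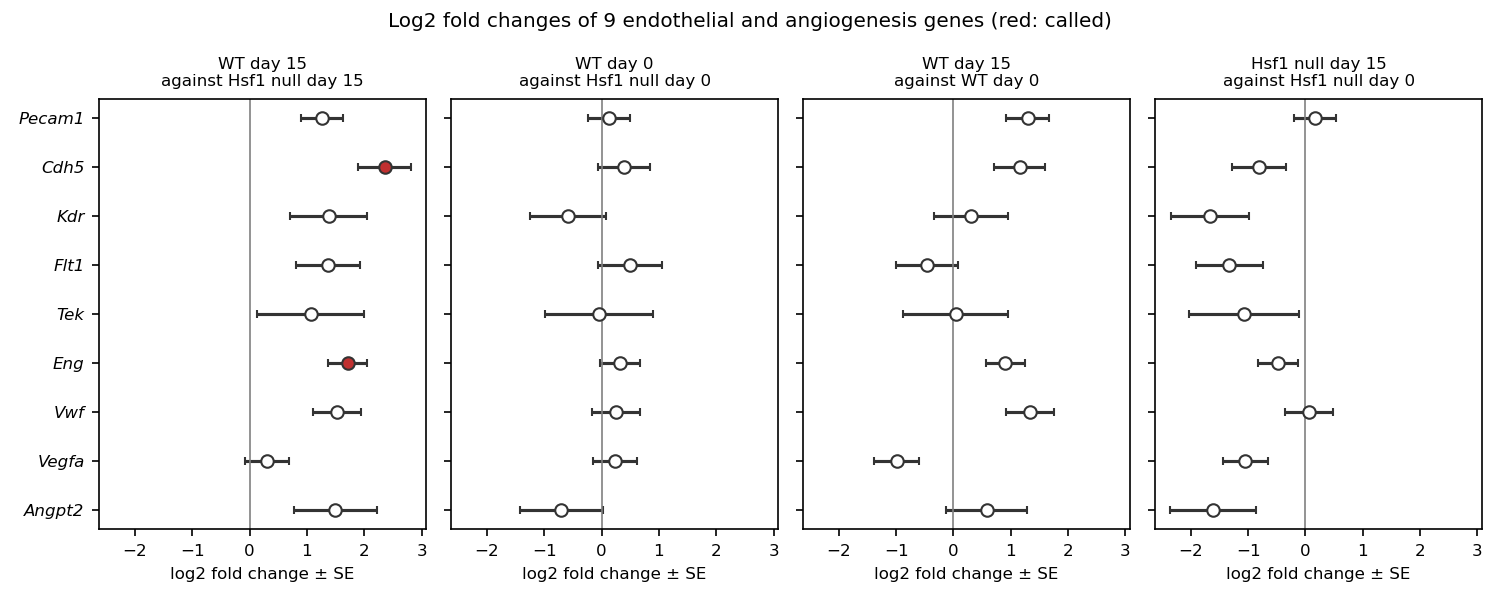
Log2 fold change (horizontal axis) with its standard error for each of the 9 genes in 4 comparisons, from the edgeR fit over all 8 mice; red points are called. At day 15 all 9 estimates of WT over Hsf1 null are above 0, with Cdh5 at 2.36 and Eng at 1.71 called, and at day 0 they run from -0.70 to 0.50 with none called.

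Compared per kb of exon over the 8 mice, the mean level was highest for Vegfa (13.3 CPM per kb), Pecam1 (12.5) and Eng (10.7), followed by Cdh5 (4.78), Vwf (1.89), Tek (1.34), Kdr (0.953), Flt1 (0.627) and Angpt2 (0.492). The order of the leading genes changed with the group. In WT at day 15 Pecam1 led with 22.8 and Eng followed with 19.0 CPM per kb, ahead of Cdh5 at 9.68 and Vegfa at 9.70, whereas Vegfa led in WT at day 0 with 19.4 CPM per kb, ahead of Eng at 10.0 and Pecam1 at 9.15. In Hsf1 null at day 15 Pecam1 was at 9.49 and Vegfa at 7.88 CPM per kb with overlapping mice, Eng at 5.78 and Cdh5 at 1.88. Exon length was taken from the union of annotated exons, so a gene whose long isoforms are not used in colon, such as a short form of Flt1, is understated.

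Each gene was also expressed relative to the geometric mean of Pecam1 and Cdh5 in the same mouse, as a description with no test. On the log2 scale, the level of Pecam1 over Cdh5 was 1.82 and 1.41 in WT at day 0, 1.82 and 2.05 in Hsf1 null at day 0, 1.82 and 1.78 in WT at day 15, and 3.34 and 2.73 in Hsf1 null at day 15. The 6 other mice thus lay between 1.41 and 2.05, and both treated Hsf1 null mice lay above them, with Cdh5 low relative to Pecam1. Whether the mean of these genes stands for a common endothelial amount was not tested. Relative Flt1 was -1.42 and -1.33 in WT at day 0, -2.27 and -1.07 in Hsf1 null at day 0, -3.02 and -3.12 in WT at day 15 and -2.73 and -2.59 in Hsf1 null at day 15, so it was lower in the 4 treated than in the 4 untreated mice. Relative Kdr was -1.75 and -2.74 in WT at day 0, -2.08 and -0.47 in Hsf1 null at day 0, -2.98 and -2.84 in WT at day 15 and -2.41 and -2.52 in Hsf1 null at day 15, and here the treated WT mice were the lowest pair. Relative Eng stayed between -0.09 and 0.61 in all 8 mice and relative Vwf between -0.97 and 0.16.

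Beyond the 9 genes, 207 genes of 20 marker and pathway lists were tested. Of these, edgeR called 15 at day 15 between genotypes, 32 in WT from day 0 to day 15 and 23 in Hsf1 null from day 0 to day 15, where 3.17%, 7.74% and 11.8% of all tested genes were called. With every library left out in turn, 0, 3 and 0 of these genes stayed called throughout. Of the 15, 15 were kept without either WT day 0 mouse, 13 without Hsf1 null day 15 replicate 2, 7 without WT day 15 replicate 1 and 0 without each of the other 4 mice. Of the 32, 4 were kept without WT day 0 replicate 2 or WT day 15 replicate 2 and 23 to 32 without each of the others. Of the 23, 0 were kept without Hsf1 null day 0 replicate 2, 7 without either Hsf1 null day 15 mouse and 18 to 20 without each of the others. At day 0 edgeR called 0 of the 207 between genotypes (22 at an unadjusted p under 0.05; 2 called by DESeq2), and for the difference in response it called 0 (35 at an unadjusted p under 0.05; 4 called by DESeq2). A list gene named as called in 1 genotype was therefore not shown by edgeR to differ from the other genotype in its response.

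In the list of 18 other pan-endothelial genes, Plvap and S1pr1 were called higher in WT at day 15, the median log2 fold change was 0.91, and 15 of the 18 had both WT mice above both Hsf1 null mice, against 28.6% of all tested genes. That median was 0.62 without Hsf1 null day 15 replicate 1 and 1.50 without replicate 2. Plvap, for the protein of endothelial fenestral diaphragms, was the most abundant of the list at 27.2 CPM per kb. At day 0 the WT mice had 40.6 and 31.3 CPM, the Hsf1 null mice 21.8 and 14.0 CPM. At day 15 the WT mice had 117 and 129 CPM, the Hsf1 null mice 33.6 and 45.8 CPM. Its log2 fold change was 1.63 between genotypes at day 15 (adjusted p = 0.0241 from edgeR). From day 0 it was 1.76 in WT (adjusted p = 0.0111 from edgeR) and 1.12 in Hsf1 null (adjusted p = 0.0388), called in both. With single mice left out, the change ran from 1.61 to 1.97 in WT. In Hsf1 null it ran from 0.86 to 1.50, with the lower end short of the threshold of 1. S1pr1, a sphingosine 1-phosphate receptor that stabilises junctions, was at 44.9 and 46.5 CPM for WT and 8.84 and 17.8 CPM in Hsf1 null at day 15 (log2 fold change 1.78, adjusted p = 0.0461). In WT, Ecscr (2.07, adjusted p = 0.0438) and Egfl7 (1.83, adjusted p = 0.0372) also rose with treatment, and the list's median was 1.12 there (0.68 without WT day 15 replicate 1) and 0.28 in Hsf1 null (0.70 without Hsf1 null day 15 replicate 1 and -0.43 without replicate 2). Tspan7 fell in both genotypes, from 112 and 186 to 65.6 and 44.3 CPM in WT and from 218 and 189 to 76.3 and 51.5 CPM in Hsf1 null. Its log2 fold change was -1.43 (adjusted p = 0.0303) and -1.67 (adjusted p = 0.0187).

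Among 7 further VEGF ligands and receptors, edgeR called 0 genes between genotypes at day 15 (1 at an unadjusted p under 0.05; Flt4 called by DESeq2). Their median log2 fold change was 0.58, and 1.04 without Hsf1 null day 15 replicate 2. Flt4, for the VEGF-C receptor VEGFR3, was at 41.9 and 26.2 CPM for WT and 12.1 and 16.8 CPM in Hsf1 null at day 15 (1.23, adjusted p = 0.0806 from edgeR). Vegfb was the most abundant of them at 17.4 CPM per kb. With treatment edgeR called 0 in WT (0 at an unadjusted p under 0.05; 0 by DESeq2) and 0 in Hsf1 null (1 at an unadjusted p under 0.05; 0 by DESeq2). Of 5 further angiopoietin and Tie genes 4 were tested, Angpt4 being too low, and at day 15 all 4 had both WT mice above both Hsf1 null mice (28.6% of all tested genes did), with a median of 1.24 (0.75 without Hsf1 null day 15 replicate 1 and 1.98 without replicate 2) and 0 called by edgeR (2 at an unadjusted p under 0.05; Svep1 called by DESeq2). Svep1, for a matrix protein that binds TIE1, led this list at 4.59 CPM per kb. Angpt1, for the TIE2 agonist angiopoietin 1, fell in Hsf1 null from 1.81 and 5.39 CPM to 0.310 and 0.535 CPM (log2 fold change -2.91, adjusted p = 0.0470 from edgeR). DESeq2 called it too (adjusted p = 0.0281), and of the 8 edgeR fits with a mouse left out only that without Hsf1 null day 0 replicate 1 called it. Tie1, for the partner of TIE2, had a log2 fold change of 1.45 in WT with treatment (adjusted p = 0.0558 from edgeR and 0.0167 from DESeq2, which called it). With single mice left out it ran from 1.13 to 1.78.

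Leukocyte adhesion molecules of activated endothelium had a median of 1.80 at day 15 over 9 tested genes, of which 7 had both WT mice above both Hsf1 null mice, as in 28.6% of all tested genes, and 2 had them below, as in 26.2%. The median was 1.22 without WT day 15 replicate 2. Vcam1, the ligand of leukocyte VLA-4, was at 156 and 146 CPM for WT and 11 and 32.9 CPM in Hsf1 null (log2 fold change 2.78, adjusted p = 0.0332 from edgeR). Ackr1, the chemokine-binding receptor of venules, was at 21.8 and 19.8 CPM for WT and 4.03 and 5.21 CPM in Hsf1 null (2.17, adjusted p = 0.0240). With treatment, Selp (3.52, adjusted p = 0.0276), Madcam1 (3.44, adjusted p = 0.0245) and Icam1 (2.08, adjusted p = 0.0356) rose in WT, and edgeR called 0 in Hsf1 null (5 at an unadjusted p under 0.05; Madcam1, Jam2 and Jam3 called by DESeq2). Madcam1 was also higher in both treated than in both untreated Hsf1 null mice (2.42, adjusted p = 0.0572 from edgeR and 0.00494 from DESeq2). That value of 2.42 ran from 1.94 to 4.70 with single mice left out. F11r, a junction molecule that epithelium also makes, was the most abundant at 97.0 CPM per kb, and Sele was too low to test.

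Of the lymphatic endothelial markers, 6 were tested and all 6 were higher in both WT mice than in both Hsf1 null mice at day 15, against 28.6% of all tested genes. Their median log2 fold change was 1.59 (2.43 without Hsf1 null day 15 replicate 2), and edgeR called 0 (5 at an unadjusted p under 0.05; Lyve1, Reln and Flt4 called by DESeq2). In Hsf1 null mice, Mmrn1 (-2.88, adjusted p = 0.0308), Lyve1 (-2.77, adjusted p = 0.0220) and Reln (-1.60, adjusted p = 0.0429) fell with treatment and the list's median was -2.12, while in WT the median was 0.02 (0.41 without WT day 0 replicate 1 and -0.27 without WT day 15 replicate 1) and edgeR called 0 (0 at an unadjusted p under 0.05; 0 by DESeq2). The change of Mmrn1 in Hsf1 null ran from -4.94 to -2.08 with single mice left out. Lyve1, the hyaluronan receptor of lymphatic capillaries that some macrophages carry, was at 9.93 and 23.7 CPM in Hsf1 null at day 0 and at 1.09 and 3.61 CPM at day 15, against 13.6 and 11.3 CPM in WT at day 15. Pdpn, which fibroblasts also make, led the list at 13.5 CPM per kb. The summed CPM of the list was 123 and 79.4 in WT at day 0, 78.9 and 125 in Hsf1 null at day 0, 143 and 118 in WT at day 15, and 28.1 and 62.1 in Hsf1 null at day 15.

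Of 10 tested pericyte markers, all 10 estimates were above 0 at day 15 (median 0.98, and 0.61 without Hsf1 null day 15 replicate 1). Kcnj8, for a potassium channel subunit, was called higher in WT, at 14.3 and 38.3 CPM against 5.12 and 4.14 CPM (log2 fold change 2.50, adjusted p = 0.0340 from edgeR). Rgs5 fell in Hsf1 null with treatment (-2.82, adjusted p = 0.0137), edgeR called 0 in WT (4 at an unadjusted p under 0.05; 0 by DESeq2), and Mcam led the list at 10.6 CPM per kb. Among 17 endothelial transcription factors, Ets1 was called higher in WT at day 15, at 57.6 and 88.9 CPM against 18.1 and 21.2 CPM (1.89, adjusted p = 0.0403 from edgeR). The part of leukocytes in this value was not tested. The median of the 17 was 0.57 (0.13 without Hsf1 null day 15 replicate 1 and 1.10 without replicate 2). Klf2, a factor induced by blood flow, rose with treatment in WT (1.33, adjusted p = 0.0385) and in Hsf1 null (1.32, adjusted p = 0.0320), while Klf4, which is abundant in epithelium and led the list at 134 CPM per kb, fell in WT (-2.36, adjusted p = 0.0146). In Hsf1 null Klf4 was at -1.08 with treatment (adjusted p = 0.102 from edgeR), where DESeq2 called it.

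Among 11 tested genes of Notch, apelin and tip cells, Notch4 rose with treatment in both genotypes (1.27, adjusted p = 0.0282 in WT and 1.64, adjusted p = 0.0145 in Hsf1 null), and at day 15 edgeR called 0 between genotypes (2 at an unadjusted p under 0.05; Cxcr4 called by DESeq2; median 0.56, 0.25 without WT day 15 replicate 2 and 0.07 without Hsf1 null day 15 replicate 1). Cxcr4 led this list at 23.1 CPM per kb. In the BMP and ALK1 pathway, in which endoglin acts, 13 genes were tested and edgeR called 0 between genotypes at day 15 (2 at an unadjusted p under 0.05; Bmp2 called by DESeq2; median 0.20, and 0.06 without WT day 15 replicate 1). Bmp2 fell in WT with treatment (-2.39, adjusted p = 0.0245), Id2 (-1.62, adjusted p = 0.0140) and Bmpr2 (-1.18, adjusted p = 0.0347) fell in Hsf1 null, and Id1 led the list at 224 CPM per kb. Of 12 genes of Weibel-Palade bodies and coagulation, Plat, for tissue plasminogen activator, was higher in WT than in Hsf1 null at day 15 (2.62, adjusted p = 0.0442; list median 0.30, from 0.00 without WT day 15 replicate 2 to 0.85 without Hsf1 null day 15 replicate 2) and rose in WT with treatment (2.79, adjusted p = 0.0245). F3, for tissue factor, fell in both genotypes (-2.09, adjusted p = 0.0103 in WT and -1.73, adjusted p = 0.0169 in Hsf1 null). Cd63 led that list at 47.4 CPM per kb.

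The 16 listed hypoxia genes hold regulators of the response (Hif1a, Epas1, Arnt and Vhl) beside induced genes, to which Vegfa also belongs. Their median between genotypes at day 15 was 0.00 (-0.12 without Hsf1 null day 15 replicate 2 and 0.23 without replicate 1). There edgeR called 0 (5 at an unadjusted p under 0.05, and Bnip3 called by DESeq2). In WT with treatment the median was -0.18 (-0.33 without WT day 0 replicate 1 and 0.00 without replicate 2). There edgeR called 0 (2 at an unadjusted p under 0.05, and 0 called by DESeq2). In Hsf1 null, Bnip3 (-2.33, adjusted p = 0.0198) and Hif1a (-1.78, adjusted p = 0.0167) fell with treatment. Ldha led the list at 425 CPM per kb. Among 9 tested angiogenesis inhibitors, Col18a1, which carries endostatin, was at 482 and 269 CPM for WT and 32.7 and 101 CPM in Hsf1 null at day 15 (log2 fold change 2.49, adjusted p = 0.0331) and rose in WT with treatment (3.29, adjusted p = 0.0103), while Adamts1 was higher in WT at day 15 (2.29, adjusted p = 0.0492). Their median at day 15 was 1.31 (0.30 without WT day 15 replicate 2, 0.80 without Hsf1 null day 15 replicate 1 and 2.16 without replicate 2) and at day 0 1.85, and edgeR called 0 in Hsf1 null with treatment (2 at an unadjusted p under 0.05; Col18a1 and Cxcl10 called by DESeq2). Col18a1 was also higher in both treated than in both untreated Hsf1 null mice (1.47, adjusted p = 0.0747 from edgeR and 0.0119 from DESeq2; 0.44 without Hsf1 null day 15 replicate 1). Thbs1 led that list at 19.4 CPM per kb. Without WT day 0 replicate 1, where Thbs1 was at 555 CPM, it was at 9.10 CPM per kb and Col18a1 led at 19.6, and the day 0 median was 0.38.

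Of 20 tested genes for other secreted angiogenic factors and their receptors, Cxcl12 (2.21, adjusted p = 0.0362) and Plxnd1 (1.33, adjusted p = 0.0456) were higher and Fgf1 (-1.74, adjusted p = 0.0217) was lower in WT than in Hsf1 null at day 15, with a median of 0.60 (0.40 without Hsf1 null day 15 replicate 1 and 0.96 without replicate 2). Angptl4 (2.70, adjusted p = 0.0319) and Plxnd1 (1.30, adjusted p = 0.0314) rose and Ctgf (-2.36, adjusted p = 0.0303), Fgf1 and Sema3c fell in WT with treatment. The value for Ctgf ran from -2.98 to -1.12 with single mice left out. Angptl2 (-1.30, adjusted p = 0.0242) and Sema3c (-1.16, adjusted p = 0.0198) fell in Hsf1 null. Ephb4, the venous ephrin receptor, led the list at 28.1 CPM per kb.

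**Figure D3:**
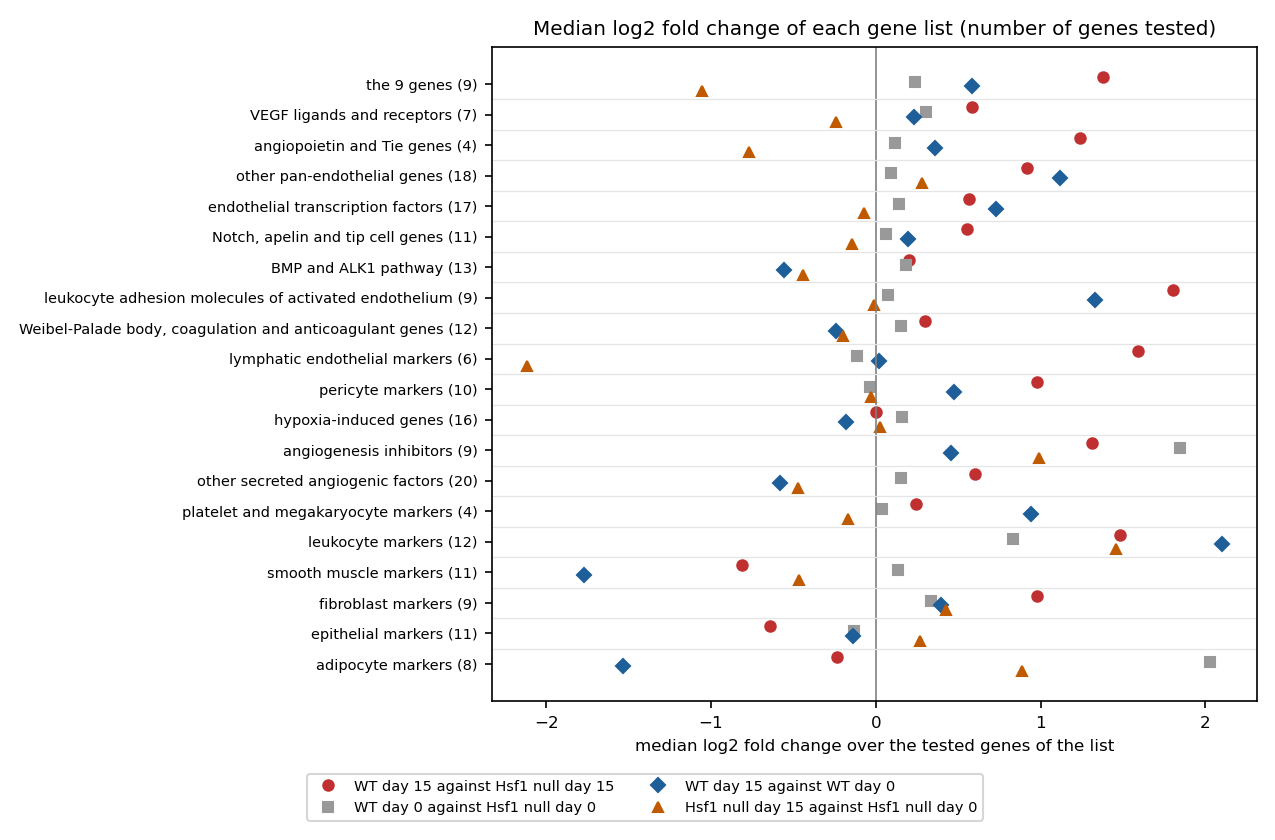
Median log2 fold change (horizontal axis) of the tested genes of each list in 4 comparisons, with the number of genes tested in brackets; each marker is 1 comparison. At day 15 the 9 genes have a median of 1.38 for WT over Hsf1 null and the lymphatic markers 1.59, while smooth muscle markers are at -0.81 and epithelial markers at -0.64.

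Markers of other cell types were measured in the same mice. Of 13 leukocyte markers 12 were tested, and all 12 were higher in both WT mice than in both Hsf1 null mice at day 15, against 28.6% of all tested genes (S100a8 and S100a9 called). Their median was 1.48, and 0.87 without WT day 15 replicate 2. Their summed CPM was 474 and 165 in WT at day 0, 210 and 161 in Hsf1 null at day 0, 906 and 2055 in WT at day 15, and 393 and 583 in Hsf1 null at day 15. S100a9 was the most abundant at 88.0 CPM per kb, but without WT day 15 replicate 2 it was at 19.3 and Laptm5 led at 31.7 CPM per kb. Ly6g was not in the count table and S100a8 was at 0 in at least 1 mouse. In treatment comparisons, 5 of the 12 leukocyte markers were called higher in WT, against 3.47% of all tested genes. In Hsf1 null 2 of the 12, Cd3e and Laptm5, were called higher, against 5.3% of all tested genes. Of 9 platelet and megakaryocyte markers, 5 were in the count table and 4 tested, with 0 called by edgeR at day 15 (1 at an unadjusted p under 0.05; Pf4 called by DESeq2; median 0.24, from 0.06 without WT day 15 replicate 1 to 0.88 without Hsf1 null day 0 replicate 2). Their sum was 22.7 and 17.9 CPM in WT at day 0, 15.3 and 20.5 in Hsf1 null at day 0, 48.4 and 32.2 in WT at day 15, and 14.1 and 26.3 in Hsf1 null at day 15. Itga2b, Gp6 and Treml1 were at 0 in at least 1 mouse each, and Gp9, Gp1ba, Ppbp and Clec1b were not in the count table. Pf4 led at 21.9 CPM per kb. Both cell types carry Pecam1 and platelets carry Vwf, and the part of these cells in the 2 genes' values was not tested.

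The 9 fibroblast markers, all tested, summed to 2788 and 1099 CPM in WT at day 0, 940.5 and 1293 in Hsf1 null at day 0, 2744 and 2616 in WT at day 15, and 572 and 1730 in Hsf1 null at day 15, led by Col1a1 at 66.5 CPM per kb. At day 15 edgeR called 0 of them between genotypes (3 at an unadjusted p under 0.05; Col3a1 and Dcn called by DESeq2). Their median there was 0.98, and it was 0.37 without Hsf1 null day 15 replicate 1 and 2.03 without replicate 2. In Hsf1 null, Dcn fell with treatment (-2.18, adjusted p = 0.0445), while the median of the 9 was 0.42 (0.67 without Hsf1 null day 15 replicate 1 and -0.41 without replicate 2). The 11 smooth muscle markers summed to 8225 and 11243 CPM in WT at day 0, 8260 and 8018 in Hsf1 null at day 0, 4317 and 2471 in WT at day 15, and 6104 and 6908 in Hsf1 null at day 15. Synm was called lower in WT than in Hsf1 null at day 15 (-1.28, adjusted p = 0.0340), and the median was -0.81 (-1.30 without WT day 15 replicate 1 and -0.49 without WT day 15 replicate 2). In WT 7 of the 11 were called lower with treatment (median -1.77), against 4.27% of all tested genes. In Hsf1 null 1 of the 11, Synpo2, was called lower (median -0.47), against 6.48% of all tested genes. Acta2 led the list at 865 CPM per kb.

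The 11 epithelial markers summed to 10806 and 16162 CPM in WT at day 0, 21222 and 16408 in Hsf1 null at day 0, 14462 and 16246 in WT at day 15, and 23514 and 20293 in Hsf1 null at day 15. At day 15 their median was -0.64 and edgeR called 0 (1 at an unadjusted p under 0.05; Slc26a3 called by DESeq2), and that median was -0.28 without Hsf1 null day 15 replicate 1 and -0.39 without WT day 15 replicate 1. Slc26a3 fell with treatment in WT (-3.63, adjusted p = 0.00655; list median -0.14, and 0.25 without WT day 0 replicate 2) and in Hsf1 null (-3.27, adjusted p = 0.0125). In Hsf1 null Car1 also fell (-1.88, adjusted p = 0.0377) and Cdx2 rose (1.22, adjusted p = 0.0325), with a list median of 0.27 (0.10 without Hsf1 null day 15 replicate 1 and 0.54 without Hsf1 null day 0 replicate 1). The highest epithelial sum and the lowest sums of the 18 other pan-endothelial genes (224 CPM) and of the fibroblast markers (572 CPM) were those of Hsf1 null day 15 replicate 1. The other pan-endothelial genes summed to 404 and 384 CPM in WT at day 0, 423 and 403 in Hsf1 null at day 0, 626 and 539 in WT at day 15, and 224 and 359 in Hsf1 null at day 15. Of 9 adipocyte markers, 8 were tested and edgeR called 0 between genotypes at day 15 (0 at an unadjusted p under 0.05; 0 by DESeq2). Their median was -0.23, and it ran from -3.42 without WT day 15 replicate 1 to 4.17 without Hsf1 null day 15 replicate 2, with sums of 368 and 121 CPM in WT at day 0, 139 and 36.6 in Hsf1 null at day 0, 210 and 54.7 in WT at day 15, and 39.4 and 273 in Hsf1 null at day 15. Cfd led at 51.9 CPM per kb, and Adipoq, Plin1, Lep, Cidec and Retn were at 0 in at least 1 mouse each. Of 6 red blood cell markers only Alas2 was in the count table, at 0.155 to 3.74 CPM, and edgeR did not call it (adjusted p = 0.845 at day 15). How much the share of these cell types in each piece of tissue contributed to the endothelial values, S1pr1 and Klf2 included, was not tested.

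Likeness of profile was measured as the root-mean-square distance between centred log2 CPM over the 8 mice, among 14009 genes with a mean of at least 1 CPM. Within the 9 genes, the closest pairs were Pecam1 with Vwf (0.36), Pecam1 with Eng (0.37) and Cdh5 with Eng (0.39), and the most distant pair was Tek with Vegfa (1.52). Among the genes nearest to Vwf were Esam, a junction molecule of endothelium, at 0.19 and Col15a1 at 0.22. Nearest to Pecam1 were Dpep2 (0.15), Lgmn (0.16) and Syt13 (0.17), to Cdh5 Plekhf1 (0.27), Cxcl12 (0.29) and Gprc5b (0.30), and to Eng Cd47 (0.17), Prickle1 (0.18) and Plod2 (0.20). Nearest to Flt1 were Ednrb (0.17), Stox2 (0.20) and Slc39a10 (0.21), and to Kdr Pola1 (0.28), Esco2 (0.29) and Pid1 (0.31). Nearest to Vegfa were Agbl3 (0.14), Tbc1d2 (0.18) and Fam110c (0.20), to Tek Ddias (0.41), Wdr35 (0.49) and Cep126 (0.51), and to Angpt2 Ankdd1b (0.32), Vstm4 (0.32) and 9330159M07Rik (0.34). The likeness to Tek leaned on 1 library, since Ddias, Wdr35 and Cep126 were, like Tek, at 1 count (0.155 CPM) in Hsf1 null day 15 replicate 1.

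Promoter sequence was looked up in RefSeq (GRCm38.p6), as 250 bases before to 50 bases after each start, and 5 of the 9 genes matched: Kdr, Flt1, Tek, Eng and Vegfa, the last with 2 starts. Pecam1, Cdh5, Vwf and Angpt2 were not among them. ETS factors such as ERG, FLI1 and ETS1 are known regulators of endothelial genes, so the letters CCGGAA and AGGAAG were searched on both strands, with heat shock element letters (GAANNTTC or TTCNNGAA, as HSF1 binds such repeats) and the hypoxia response letters ACGTG. Over all 32851 promoters of the table, 14.9% held CCGGAA, 35.4% AGGAAG, 15.1% the heat shock element letters and 19.6% ACGTG. Kdr held CCGGAA 1 time, and Flt1 and Eng held AGGAAG 2 times each. Heat shock element letters were found in Tek (1 time) only, and ACGTG in the second Vegfa start (1 time) only. The promoters of the co-receptor called at day 15 and of both VEGF receptors are shown 5′ to 3′ along the gene's own strand, with ETS letters of either strand in capitals; Eng is chr2:32646345-32646644 (plus strand), Kdr chr5:75978406-75978705 (minus strand) and Flt1 chr5:147725962-147726261 (minus strand). A match is a description of the letters and not evidence of binding.
Eng: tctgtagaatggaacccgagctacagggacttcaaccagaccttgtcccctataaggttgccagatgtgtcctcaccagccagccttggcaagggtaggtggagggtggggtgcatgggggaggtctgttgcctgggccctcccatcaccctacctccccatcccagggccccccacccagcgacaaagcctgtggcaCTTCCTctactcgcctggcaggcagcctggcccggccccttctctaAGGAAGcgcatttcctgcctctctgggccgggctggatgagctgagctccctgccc
Kdr: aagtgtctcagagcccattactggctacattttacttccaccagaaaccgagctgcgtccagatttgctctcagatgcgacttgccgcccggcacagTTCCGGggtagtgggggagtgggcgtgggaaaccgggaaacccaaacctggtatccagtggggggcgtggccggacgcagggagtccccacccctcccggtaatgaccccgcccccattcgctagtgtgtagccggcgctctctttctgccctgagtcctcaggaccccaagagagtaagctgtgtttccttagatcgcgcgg
Flt1: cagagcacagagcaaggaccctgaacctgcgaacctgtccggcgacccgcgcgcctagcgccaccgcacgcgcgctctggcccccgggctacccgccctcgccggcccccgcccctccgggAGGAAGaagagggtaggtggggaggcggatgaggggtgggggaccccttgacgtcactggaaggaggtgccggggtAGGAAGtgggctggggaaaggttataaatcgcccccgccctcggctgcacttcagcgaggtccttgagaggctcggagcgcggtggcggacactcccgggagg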

How the data were processed

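RNA of distal colon from 8 mice was sequenced as polyA-selected libraries (Lexogen SENSE), and the authors aligned the reads with STAR to mm10 and deposited raw counts per gene. The counting program and the annotation are not given in the sources used here. The deposited normalized table was not used. Gene positions and exon lengths were taken from GENCODE M21 (GRCm38).

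The 4 groups were fitted together over all 8 mice with the quasi-likelihood test of edgeR 4.0.16 (limma 3.58.1, R 4.3.3) after TMM, with p-values adjusted by Benjamini-Hochberg over 14371 genes, those whose normalized count averaged above 5. A call needed an adjusted p under 0.05 together with a log2 fold change beyond 1 in either direction. CPM used TMM-scaled totals. Total counts ran from 2553348 to 12440257. Mice are separate animals, and 2 a group measure their spread poorly.

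Alternatives were DESeq2 1.42.0, its size factors in edgeR, no filter, thinning to the smallest total, the replicate number as a block, and each mouse left out. Scripts were tested on simulated data. The 9 genes and the lists were chosen with earlier results of these data known. Named genes were Hsf1, the 9 genes, in each list the gene with the highest CPM per kb and up to 3 called genes with the largest change in a comparison (otherwise that with the smallest p), and 3 nearest profiles for each of the 9. Some values that this rule covers are not reported here. Genes whose values are listed beyond these were chosen after their values were seen. The lists were those of VEGF, angiopoietin and Tie, other pan-endothelial, transcription factor, Notch, BMP, adhesion, coagulation, lymphatic, pericyte, hypoxia, inhibitor and other secreted factor genes, and markers of platelets, leukocytes, smooth muscle, fibroblasts, epithelium, adipocytes and red blood cells.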

Additional observations from a re-analysis of the deposited data

Results flagged for a closer look

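The change of Cdh5 from day 0 to day 15 went in opposite directions in the genotypes: both treated WT mice lay above both untreated WT mice, and both treated Hsf1 null mice lay below both untreated Hsf1 null mice. Neither change was called by edgeR (1.16, adjusted p = 0.128 in WT and -0.81, adjusted p = 0.253 in Hsf1 null). In Hsf1 null the closest mice were at 11.9 CPM (89 counts) at day 15 and 12.9 CPM (36 counts) at day 0. The change in Hsf1 null was -0.23 without Hsf1 null day 15 replicate 1. The difference between the changes was 1.97 ± 0.64 on the log2 scale, with an adjusted p of 0.454 from edgeR, and it was 1.39 without Hsf1 null day 15 replicate 1 and 2.998 without replicate 2. With each mouse left out, the adjusted p from edgeR ran from 0.0663 to 0.971. The test of the difference did not pass.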

How the results depend on the processing

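Of 625 values for the 9 genes, comparisons and alternatives, 577 kept their direction and side of the threshold, 10 lost a call, 17 gained a call and 21 changed direction. Between genotypes at day 15, 2 of the 9 genes and 455 of all genes were called. DESeq2 called 4 and 1208, and the 9 genes ranged from 0 to 5 and all genes from 12 to 873 with each mouse left out. At day 0 DESeq2 called 18 of all genes, and leaving out a mouse gave 0 to 17. In WT with treatment (1112 genes called), DESeq2 called 2 of the 9 genes and 1737 of all genes, and leaving out a mouse gave 0 to 2 and 92 to 1336. In Hsf1 null with treatment (1692 called), leaving out a mouse gave 0 to 1 of the 9 genes and 0 to 1891 of all genes. For the difference in response (1 gene called), DESeq2 called 120, no filter gave 2, and leaving out a mouse gave 0 to 50. Where a mouse left out leaves 1 in its group, that mouse is assumed to vary like the others. The cause of these changes was not tested.

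The replicate numbers do not pair the mice: no label says so, and with 2 mice a group the correlations of same-numbered deviations ran from -0.29 to 0.15. With the number as a replicate block, edgeR called the same number of the 9 genes in each comparison, 343 of all genes between genotypes at day 15, 868 in WT and 1506 in Hsf1 null with treatment, 2 genes in the difference in response, and 7 of the 15, 27 of the 32 and 20 of the 23 list genes called without it. It gave a log2 fold change of 0.13 for Tek between genotypes at day 0. Exchanging the numbers of the WT mice at day 0, chosen after seeing the data because their correlations with the day 15 groups were negative, gave a block fit with 4 of the 9 and 1314 of all genes called between genotypes at day 15, 1 and 1856 in WT with treatment, 2 of the 9 in Hsf1 null with treatment and 54 genes for the difference in response.

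Thinned to the smallest total, Kdr and Tek in WT with treatment turned to -0.24 and -0.45 from 0.30 and 0.04, and Angpt2 was too low to test. With each mouse left out, the log2 fold changes that changed direction ran from -0.11 to 0.87 for Vegfa between genotypes at day 15. At day 0 between genotypes they ran from -0.44 to 0.49 for Pecam1, -1.78 to 0.31 for Kdr, -0.017 to 1.11 for Flt1, -0.55 to 0.55 for Tek and -0.18 to 0.67 for Vegfa. In WT with treatment they ran from -0.22 to 1.49 for Kdr and -0.19 to 0.39 for Tek, in Hsf1 null from -0.42 to 0.58 for Pecam1 and -0.50 to 0.47 for Vwf, and for the difference in response from -0.37 to 0.65 for Vegfa.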
